A study of Mus musculus with 9 samples.

Results

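The glutamate receptors and postsynaptic scaffolds are described here as 46 genes, chosen by symbol from the 23360 genes of the deposited tables. They encode the pore-forming subunits of AMPA, NMDA and kainate receptors, the metabotropic glutamate receptors, the auxiliary subunits that travel with AMPA and kainate receptors, and the scaffold proteins and kinase subunits under the postsynaptic membrane. Gene expression was measured by RNA sequencing in 9 libraries, 3 from each of 3 groups. The tumours of the first group, called A1G tumours below, were primary medulloblastomas of mice with the genotype Math1-cre;A1G;Ptch1+/-. Ptch1 tumours were primary medulloblastomas of Ptch1+/- mice. Both tumour groups were of a mixed strain, and both carried the heterozygous loss of Ptch1, the receptor that holds Hedgehog signalling in check. Math1-cre places Cre recombinase under regulatory sequence of Math1, also named Atoh1, a transcription factor of granule neuron progenitors. The third group was cerebellum of wild-type adult mice of the strain C57BL/6. The labels give no age for the tumour-bearing mice, so genotype, strain, age and tissue cannot be told apart in a comparison of tumour with cerebellum. The labels number the libraries of a group as replicates without naming separate animals, so p-values measure the spread between these libraries, which may be partly technical.

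Glutamate is the main excitatory transmitter of the brain. AMPA receptors carry the fast current at excitatory synapses, NMDA receptors admit calcium when glutamate and depolarisation coincide, and kainate and metabotropic receptors modulate release and excitability. In adult cerebellum, mossy fibres excite granule neurons, whose parallel fibres in turn excite Purkinje cells and interneurons, and the receptors and scaffolds described here sit at these contacts and on Bergmann glia. Granule neuron progenitors, from which medulloblastomas of the Hedgehog subgroup arise, have not yet formed these synapses.

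Levels are given as CPM, the deposited fragments of a gene per 1000000 fragments of its library after TMM scaling, a correction for differences in library composition. A comparison is given as a log2 difference with its standard error (SE, the size of the log2 difference divided by the square root of edgeR's F statistic). A gene was called higher or lower where the edgeR quasi-likelihood test gave a Benjamini-Hochberg adjusted p under 0.05 over the 14337 genes tested. CPM does not allow for gene length, so levels of different genes are compared only as FPKM, the authors' fragments scaled to gene length and library size.

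The libraries held 2350941 to 9290237 fragments. Atoh1 ranged from 296 to 652 CPM in the A1G tumours and from 279 to 405 CPM in the Ptch1 tumours, against 0 to 16.4 CPM in cerebellum. Ptch1 was measured at 60.04 to 299.7 CPM in A1G tumours, 52.8 to 99.996 CPM in Ptch1 tumours and 55.9 to 181 CPM in cerebellum, and a count per gene does not show which allele was read. The summed level of 12 markers of granule neuron progenitors was 3810 to 8869 CPM in the A1G tumours and 8339.9 to 9765 CPM in the Ptch1 tumours, against 125 to 173 CPM in cerebellum. The markers of mature granule neurons (12 genes) summed to 580.2 to 1907 CPM in the A1G tumours and 268 to 1489 CPM in the Ptch1 tumours, against 10565 to 11181 CPM in cerebellum. The 12 Purkinje cell markers summed to 436 to 924 CPM in the A1G tumours and 306 to 443 CPM in the Ptch1 tumours, against 9926 to 12172 CPM in cerebellum, and the 12 markers of inhibitory interneurons and Golgi cells to 137 to 218 CPM in the A1G tumours and 119 to 176 CPM in the Ptch1 tumours, against 1813 to 2015 CPM in cerebellum. In A1G tumours 11, 11 and 10 of the markers of granule neurons, Purkinje cells and interneurons were called lower, and in Ptch1 tumours 12, 11 and 10. The exception among the Purkinje cell markers was Ebf2, called higher in both, with a mean of 54.3 CPM in the A1G tumours and 74.02 CPM in the Ptch1 tumours, against 15.8 CPM in cerebellum. Slc6a5, a Golgi cell marker, was at 0 in all 6 tumour libraries. None of the granule neuron and Purkinje cell markers was, and Gabra6, of granule neurons, and Calb1, of Purkinje cells, averaged 19.3 and 17.3 CPM in the A1G tumours and 5.04 and 1.203 CPM in the Ptch1 tumours, against 571 and 673 CPM in cerebellum. Among glia, the 12 markers of astrocytes and Bergmann glia summed to 1309 to 2425 CPM in the A1G tumours and 1256 to 2766 CPM in the Ptch1 tumours, against 4556 to 5492 CPM in cerebellum, with 8 called lower in each and 1 called higher in Ptch1 tumours. Those of oligodendrocytes summed to 357 to 466 CPM in the A1G tumours and 79.3 to 406 CPM in the Ptch1 tumours, against 8184 to 8946 CPM in cerebellum, and all 12 were called lower in both, with Opalin at 0 in every tumour library. Oligodendrocyte precursor markers summed to 778 to 1556 CPM in the A1G tumours and 1175 to 1733 CPM in the Ptch1 tumours, against 576 to 679 CPM in cerebellum. These 12 markers were split, with 5 called higher and 0 lower in A1G tumours and 5 higher and 4 lower in Ptch1 tumours. Their median log2 difference was 0.18 in A1G tumours and -0.14 in Ptch1 tumours. Microglia markers summed to 319 to 484 CPM in the A1G tumours and 205 to 353 CPM in the Ptch1 tumours, against 151 to 177 CPM in cerebellum. The 12 endothelial markers summed to 138 to 235 CPM in the A1G tumours and 103 to 164 CPM in the Ptch1 tumours, against 258 to 320.5 CPM in cerebellum. The part of these cell types in the differences below was not tested, and in whole tissue fewer cells of a type and less RNA per cell cannot be told apart. In each group 1 library stood apart with GC-rich genes high (A1G tumour replicate 2, Ptch1 tumour replicate 3 and cerebellum replicate 3), and results are given without these 3 libraries where that ended or made a call.

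Of the 46 genes, 43 reached an FPKM of 1 in at least 3 libraries and were tested. Grin2d, Neto1 and Dlgap2 did not, and 1 of the 43, Grm8, reached it in cerebellum alone. In A1G tumours 1 of the 43 was called higher and 23 lower than in cerebellum, 55.8% of those tested, beside 32.4% of all genes tested (16.3% higher and 16.1% lower). In Ptch1 tumours 1 was called higher and 25 lower, 60.5%, beside 40.0% of all genes tested (20.2% higher and 19.7% lower). The A1G tumour libraries did not overlap with cerebellum for 25 genes, 2 of them higher and 23 lower, beside 45.9% of all genes tested (22.5% higher and 23.4% lower). For Ptch1 tumours these were 28 genes, 2 higher and 26 lower, beside 54.2% (27.2% higher and 27.0% lower). The median log2 difference of the 43 genes was -1.69 in A1G tumours and -1.90 in Ptch1 tumours, and that of all genes tested was 0.03 and 0.00. Of the 43, Grin2a, Grik4, Grm2, Grm7, Grm8, Shank1 and Camk2a reached the FPKM minimum in fewer than 3 tumour libraries and passed only through cerebellum, so the filter chose them for a higher level there and their calls are given as description. Among the other 36 genes, 1 was called higher and 17 lower in A1G tumours and 1 higher and 18 lower in Ptch1 tumours, with a median log2 difference of -0.92 in each. Homer2 was the gene called higher in both comparisons, 23 genes were called lower in both, and 17 were called in neither. The comparisons share the 3 cerebellum libraries, so their calls are not independent of each other. In the annotation Grin2d, Grin3a, Grm8, Cnih2, Shank1 and Homer3 overlap another listed gene, and since the counting is not stated to use strand, their reads may be mixed with it. Among the genes left out of the test, Grin2d had 0 to 4.68 CPM in A1G tumours, 0 to 0.79 CPM in Ptch1 tumours and 1.58 to 10.8 CPM in cerebellum, and Neto1 and Dlgap2 stayed under 6 CPM in every library.

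**Figure D1:**
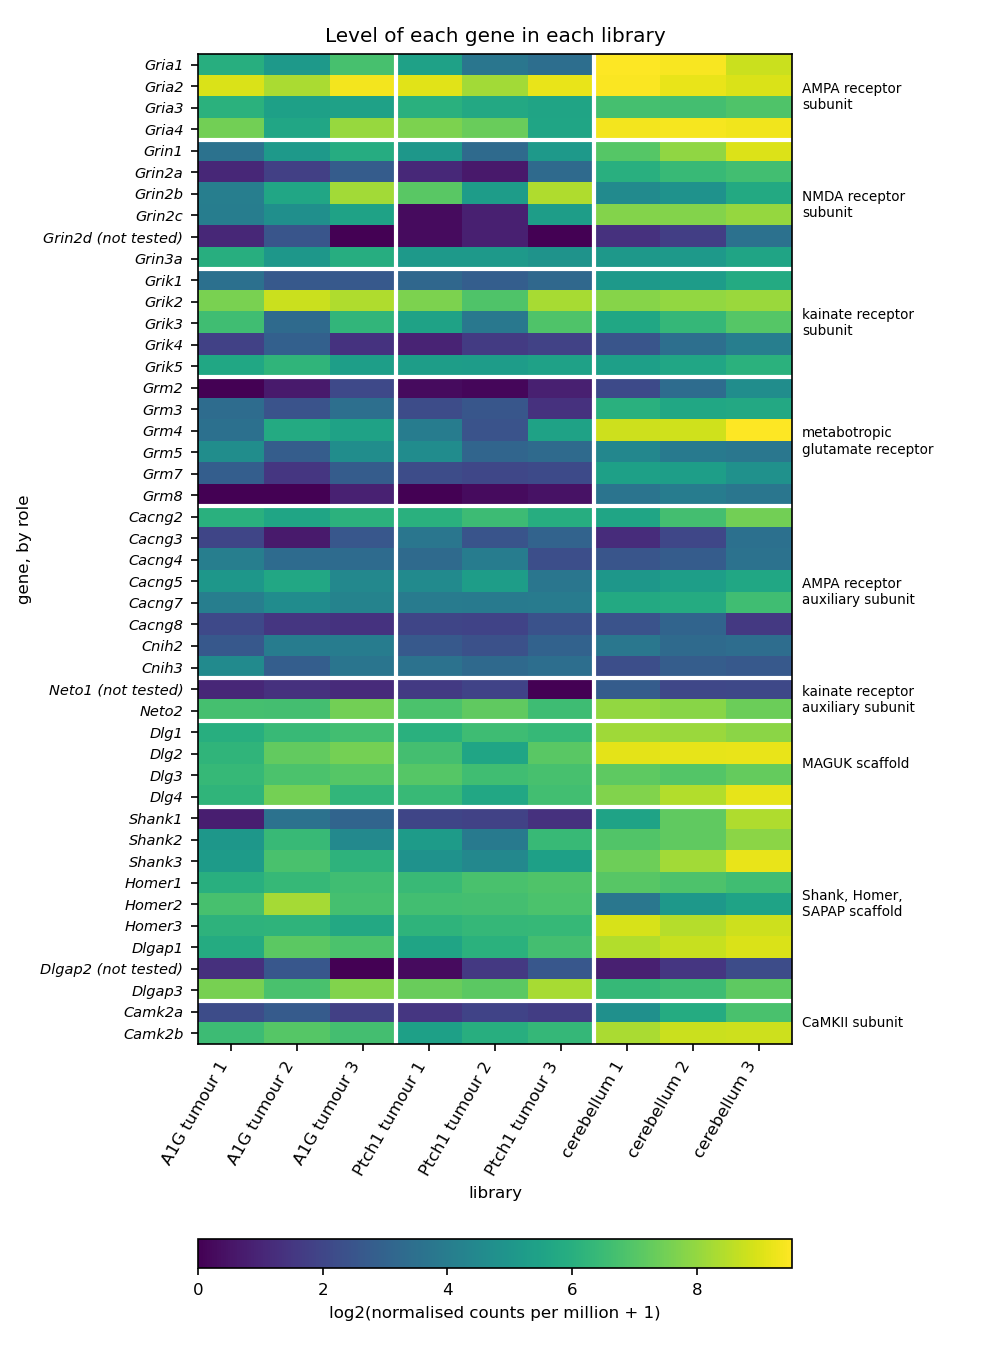
Level of each of the 46 genes (rows, grouped by role) in each of the 9 libraries (columns) as log2(CPM + 1), with lighter colours for higher levels. The cerebellum columns are lighter in most rows, Homer2 is lighter in all 6 tumour columns, and Gria2, Grik2 and Homer1 keep similar colours throughout.

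**Figure D2:**
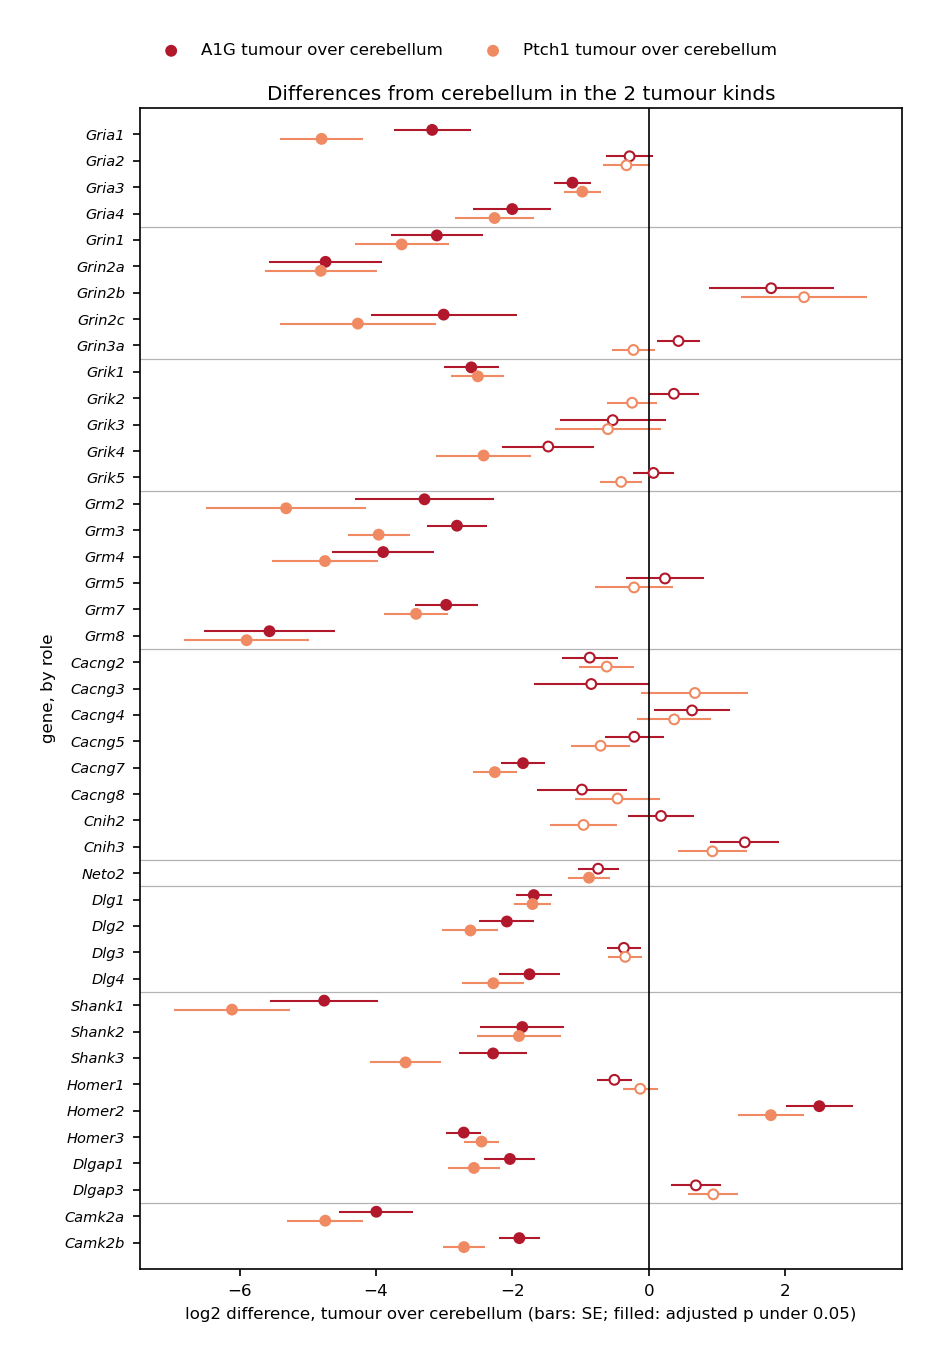
Log2 difference of each of the 43 tested genes (rows) between each tumour group and cerebellum, with bars for the SE and filled points where the adjusted p was under 0.05. Most filled points lie left of 0, and Homer2 is the gene with both points filled on the right.

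The AMPA receptor genes fell with 1 exception. Gria1, Gria3 and Gria4 were called lower in both tumour groups, whereas Gria2, the subunit that makes AMPA receptors impermeable to calcium in its edited form, was not called in either. Gria1 had 62.3, 34.3 and 107 CPM in the A1G tumours, 43.3, 12.5 and 9.96 CPM in the Ptch1 tumours and 724, 683 and 431 CPM in cerebellum. Every tumour library lay below every cerebellum library, with log2 differences of -3.18 (SE 0.56, adjusted p = 0.00112) in A1G tumours and -4.80 (SE 0.61, adjusted p = 7.6e-05) in Ptch1 tumours, and without Ptch1 tumour replicate 1 the second was -5.75. Gria2 had 512, 317 and 656 CPM in the A1G tumours, 553, 291 and 593 CPM in the Ptch1 tumours and 708, 597 and 502 CPM in cerebellum. The groups overlapped, with log2 differences of -0.28 (SE 0.34, adjusted p = 0.562) in A1G tumours and -0.33 (SE 0.34, adjusted p = 0.473) in Ptch1 tumours.

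Gria4 had 180.2, 48.3 and 265 CPM in the A1G tumours, 201, 163 and 47.1 CPM in the Ptch1 tumours and 660.2, 678 and 639 CPM in cerebellum. Cerebellum was tight and the tumour libraries were spread, yet all 6 lay lower, with log2 differences of -2.00 (SE 0.57, adjusted p = 0.018) in A1G tumours and -2.26 (SE 0.58, adjusted p = 0.00794) in Ptch1 tumours. Gria3 had 66.3, 41.5 and 42.4 CPM in the A1G tumours, 65.7, 53.4 and 46.7 CPM in the Ptch1 tumours and 105, 102 and 119.8 CPM in cerebellum. The tumour and cerebellum libraries did not overlap, and the log2 differences of -1.12 in A1G tumours and -0.98 in Ptch1 tumours were the smallest of the 3 called genes (adjusted p = 0.00777 and 0.0123). The call in Ptch1 tumours was lost without the 3 GC-rich libraries (adjusted p = 0.0544).

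Summed over the 4 genes, the AMPA subunits had an FPKM of 158 ± 58.5 in A1G tumours, 151 ± 39.4 in Ptch1 tumours and 382 ± 50.4 in cerebellum (mean ± SD, n = 3 each). Of that sum, Gria2 made up 63.5, 73.6 and 62.9% in A1G tumours, 66.8, 58.5 and 87.6% in Ptch1 tumours and 36, 32 and 32.6% in cerebellum, and the tumour libraries all lay above the cerebellum libraries. The share of Gria1 was 6.98, 6.5 and 8.91% in A1G tumours, 4.32, 2.04 and 1.1% in Ptch1 tumours and 29.6, 30.4 and 23% in cerebellum. Gria2 was thus the most abundant AMPA subunit per length in every tumour library, while in cerebellum Gria1, Gria2 and Gria4 each took between 23.0% and 37.3%. These shares compare genes within a library, so no scaling between libraries enters them, and they were not put to a test. Genes of a family differ in GC content, with 36.8% for Gria2, 48.5% for Gria1, 45.7% for Grin2b and 62.1% for Grin2c. The leaning of a library to GC-rich genes can therefore enter shares. Since Gria1, Gria3 and Gria4 were called lower, the larger share of Gria2 is not independent of their calls.

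Among the NMDA receptor genes, the obligatory subunit gene Grin1 and the regulatory subunit genes Grin2a and Grin2c were called lower in both tumour groups, and Grin2b and Grin3a were called in neither. In rodent cerebellum, granule neurons are known to express Grin2b early and to take up Grin2a and Grin2c as they mature. Grin1 had 11.1, 34.3 and 58.8 CPM in the A1G tumours, 31.8, 8.76 and 33.3 CPM in the Ptch1 tumours and 128, 247 and 522 CPM in cerebellum. No tumour library reached the lowest cerebellum library, and the log2 differences were -3.11 (SE 0.68, adjusted p = 0.00402) in A1G tumours and -3.62 (SE 0.69, adjusted p = 0.00132) in Ptch1 tumours. They depended in size on single libraries: without cerebellum replicate 3 they were -2.42 in A1G tumours and -2.94 in Ptch1 tumours, and without A1G tumour replicate 3 that in A1G tumours was -3.71.

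Grin2a had 1.11, 2.495 and 5.76 CPM in the A1G tumours, 1.14, 0.562 and 8.81 CPM in the Ptch1 tumours and 63, 85.1 and 99 CPM in cerebellum. Every tumour library lay below cerebellum, with log2 differences of -4.74 (SE 0.82, adjusted p = 0.001) in A1G tumours and -4.81 (SE 0.82, adjusted p = 0.000625) in Ptch1 tumours. Since Grin2a passed the filter only through cerebellum, these values are description and not support. Without replicate 3 of the tumour group these were -5.47 in A1G tumours and -6.65 in Ptch1 tumours, and without Ptch1 tumour replicate 2 the second was -4.14. Grin2c had 15.5, 25.9 and 44.4 CPM in the A1G tumours, 0.229, 0.786 and 38.3 CPM in the Ptch1 tumours and 216, 214 and 259 CPM in cerebellum. All tumour libraries lay below cerebellum, with log2 differences of -3.01 (SE 1.07, adjusted p = 0.0476) in A1G tumours and -4.27 (SE 1.15, adjusted p = 0.0106) in Ptch1 tumours. The call in A1G tumours was marginal and was lost on leaving out any 1 of the A1G tumour or cerebellum libraries (adjusted p = 0.0754 to 0.133), with a GC offset per library (adjusted p = 0.0689), with upper quartile scaling (adjusted p = 0.0505) and with limma on log2(FPKM + 0.1) (adjusted p = 0.0811). In Ptch1 tumours replicate 3 stood apart from the others, and without it the log2 difference was -8.56, resting on 1 and 7 fragments in replicates 1 and 2. Without Ptch1 tumour replicate 1 or replicate 2 it was -3.64 and -3.63.

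Grin2b had 15.9, 49.3 and 298 CPM in the A1G tumours, 134, 37.4 and 337 CPM in the Ptch1 tumours and 22.3, 27.7 and 54.1 CPM in cerebellum. Replicate 3 of each tumour group and Ptch1 tumour replicate 1 lay above every cerebellum library, and the other 3 tumour libraries lay within or below the cerebellum range. The log2 differences were 1.79 (SE 0.92, adjusted p = 0.158) in A1G tumours and 2.27 (SE 0.93, adjusted p = 0.0691) in Ptch1 tumours. The value for A1G tumours rested on replicate 3, without which it was -0.09. In Ptch1 tumours, leaving out 1 library at a time moved the adjusted p between 0.0232 and 0.302. With no filter on low values Grin2b was called higher in both (adjusted p = 0.0437 in A1G tumours and 0.00772 in Ptch1 tumours), and with a fit of only the groups compared it was called higher in Ptch1 tumours (adjusted p = 0.0216). Grin3a had 62.3, 31.8 and 60.04 CPM in the A1G tumours, 33.4, 34.6 and 29.1 CPM in the Ptch1 tumours and 32.6, 34.4 and 46.9 CPM in cerebellum, with overlap between every pair of groups and no call, with log2 differences of 0.43 (SE 0.31, adjusted p = 0.32) in A1G tumours and -0.23 (SE 0.31, adjusted p = 0.596) in Ptch1 tumours. Without the 3 GC-rich libraries it was called higher in A1G tumours (log2 difference 0.87, adjusted p = 0.0338).

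Within the GluN2 family, the library shares separated tumours from cerebellum although the level of Grin2b itself did not. The summed family includes Grin2a and Grin2c, which were called lower, so the shares are not independent of those calls. Of the summed FPKM of Grin2a, Grin2b, Grin2c and Grin2d, Grin2b made up 36.2, 48.3 and 79.1% in A1G tumours, 98.03, 91.3 and 81.9% in Ptch1 tumours and 4.77, 5.43 and 8.41% in cerebellum. Every tumour library lay above every cerebellum library, and the 3 Ptch1 tumour libraries lay above the 3 A1G tumour libraries, the nearest being 81.9% and 79.1%. Neither separation of shares was tested. In level, 15.5% of all genes tested did not overlap between A1G and Ptch1 tumours. With edgeR over all 9 libraries, none of Grin2a, Grin2b and Grin2c was called between them. In Ptch1 tumour replicate 1, Grin2c was read by 1 fragment. Grin2c made up 55.1, 39.5 and 18.4% in A1G tumours, 0.261, 2.99 and 14.5% in Ptch1 tumours and 71.8, 65.4 and 62.6% in cerebellum. In cerebellum Grin2c was the largest GluN2 component per length in all 3 libraries, followed by Grin2a with 22.8, 28.3 and 26.1%. In tumours it was Grin2b in 5 of 6 libraries, the exception being A1G tumour replicate 1, where Grin2c led. As a share of fragments, without division by length, Grin2b took 47.3% in that library and Grin2c 46.2%. The mean share of Grin2b was 54.5% ± 22.1 in A1G tumours, 90.4% ± 8.12 in Ptch1 tumours and 6.204% ± 1.94 in cerebellum (SD, n = 3 each). Grin2b lies at chr6:135713233-136173511 on the minus strand and Grin2c at chr11:115249169-115267243 on the minus strand (GENCODE M21, GRCm38).

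**Figure D3:**
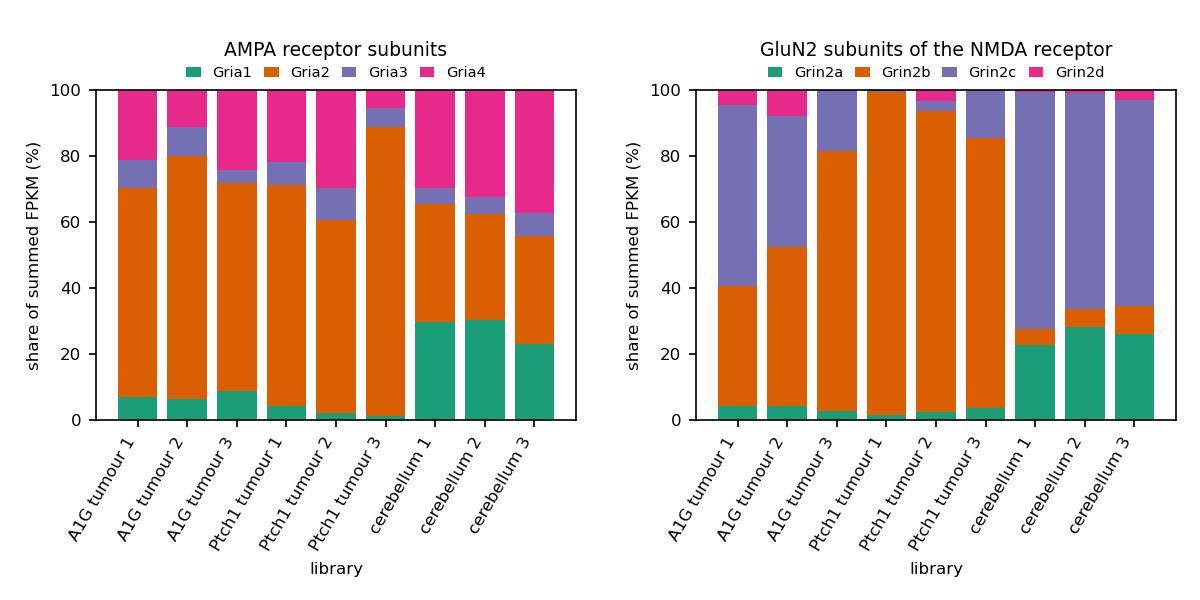
Share of the summed FPKM (vertical axis, percent) taken by each AMPA receptor subunit (left) and each GluN2 subunit (right) in each of the 9 libraries (bars). Gria2 takes 58.5% to 87.6% in tumours and 32.0% to 36.0% in cerebellum, and Grin2b 36.2% to 98.03% in tumours and 4.77% to 8.41% in cerebellum.

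Among the 5 kainate receptor genes, Grik1 was called lower in both tumour groups, Grik4 in Ptch1 tumours, and the other 3 in neither. Grik2, which encodes the subunit GluK2, had the highest FPKM of the 5 in every library. Of their sum it took 59.5, 79.2 and 77.1% in A1G tumours, 70.6, 64.9 and 70.2% in Ptch1 tumours and 63, 59.9 and 52% in cerebellum. Grik2 had 195, 435 and 335 CPM in the A1G tumours, 201, 120.1 and 311 CPM in the Ptch1 tumours and 222, 254 and 273 CPM in cerebellum, and the groups overlapped, with log2 differences of 0.37 (SE 0.37, adjusted p = 0.479) in A1G tumours and -0.25 (SE 0.37, adjusted p = 0.625) in Ptch1 tumours. Grik1 had 10.3, 5.3 and 5.35 CPM in the A1G tumours, 8.01, 6.18 and 8.43 CPM in the Ptch1 tumours and 33.6, 37.7 and 56.3 CPM in cerebellum. Its tumour libraries were all lower than cerebellum, with log2 differences of -2.60 (SE 0.40, adjusted p = 0.000423) in A1G tumours and -2.51 (SE 0.39, adjusted p = 0.000333) in Ptch1 tumours. Grik3 and the high-affinity subunit gene Grik5 overlapped with cerebellum in both tumour groups, with log2 differences of -0.53 in A1G tumours and -0.60 in Ptch1 tumours for Grik3 and 0.07 in A1G tumours and -0.41 in Ptch1 tumours for Grik5.

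Grik4, the other high-affinity subunit gene, and Neto2, an auxiliary subunit gene of kainate receptors, were called in 1 comparison each. Of these, Grik4 passed the filter only through cerebellum, so its call is given as description. Grik4 had 2.58, 6.55 and 1.64 CPM in the A1G tumours, 0.916, 2.13 and 2.68 CPM in the Ptch1 tumours and 4.73, 10.03 and 15.8 CPM in cerebellum. The log2 differences were -1.48 (SE 0.67, adjusted p = 0.113) in A1G tumours and -2.42 (SE 0.69, adjusted p = 0.0147) in Ptch1 tumours, and A1G tumour replicate 2 lay within the cerebellum range. Without that library the call was made in A1G tumours as well (log2 difference -2.25, adjusted p = 0.0396), and in Ptch1 tumours it was lost without Ptch1 tumour replicate 1 or cerebellum replicate 3 (-2.10 and -1.95, adjusted p = 0.0585 and 0.0763), and without the 3 GC-rich libraries (adjusted p = 0.0532). Neto2 had 104, 103 and 179.7 CPM in the A1G tumours, 111, 145 and 95 CPM in the Ptch1 tumours and 255, 225 and 166 CPM in cerebellum, with log2 differences of -0.74 (SE 0.30, adjusted p = 0.0787) in A1G tumours and -0.88 (SE 0.30, adjusted p = 0.0353) in Ptch1 tumours. Neto2 was called lower in A1G tumours too without A1G tumour replicate 3 (-1.06, adjusted p = 0.0280), with DESeq2 (adjusted p = 0.0466) and with a GC offset per library or within groups (adjusted p = 0.00974 and 0.0412). In Ptch1 tumours its call was lost on leaving out Ptch1 tumour replicate 1 or 3 or cerebellum replicate 1 or 2 (adjusted p = 0.0875 to 0.111). Between the tumour groups themselves the adjusted p was 0.66 for Grik4 and 0.91 for Neto2, so a difference between genotypes was not shown for either.

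Of the 6 metabotropic receptor genes, 5 were called lower in both tumour groups, namely the G protein-inhibitory receptors Grm2, Grm3, Grm4, Grm7 and Grm8. Grm2, Grm7 and Grm8 are among those that passed the filter only through cerebellum. The exception was Grm5, the receptor of this set that couples to phospholipase C. Grm4 had 10.3, 55.2 and 44.4 CPM in the A1G tumours, 14.9, 4.38 and 44.1 CPM in the Ptch1 tumours and 447, 456 and 737 CPM in cerebellum. Grm4, the receptor of parallel fibre terminals, had the highest FPKM of the 6 in every cerebellum library, and its log2 differences were -3.90 (SE 0.75, adjusted p = 0.00192) in A1G tumours and -4.75 (SE 0.78, adjusted p = 0.000499) in Ptch1 tumours. Without Ptch1 tumour replicate 3 the second was -5.86. Grm3 had 9.22, 4.37 and 10.3 CPM in the A1G tumours, 3.66, 4.83 and 1.53 CPM in the Ptch1 tumours and 64.3, 49.9 and 52.7 CPM in cerebellum. The groups were well apart from cerebellum, with log2 differences of -2.81 (SE 0.44, adjusted p = 0.000446) in A1G tumours and -3.96 (SE 0.46, adjusted p = 3.8e-05) in Ptch1 tumours.

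Grm7 had 6.27, 1.87 and 5.76 CPM in the A1G tumours, 3.66, 3.03 and 3.45 CPM in the Ptch1 tumours and 41.5, 39.8 and 27 CPM in cerebellum, lower in every tumour library, with log2 differences of -2.97 (SE 0.46, adjusted p = 0.000477) in A1G tumours and -3.41 (SE 0.47, adjusted p = 0.000134) in Ptch1 tumours. Grm7, like Grm2 below, passed the filter only through cerebellum, so the calls of both are given as description. Grm8 had 0, 0 and 0.822 CPM in the A1G tumours, 0, 0.225 and 0.383 CPM in the Ptch1 tumours and 11.8, 14.9 and 12.4 CPM in cerebellum. Since Grm8 reached the FPKM minimum in cerebellum alone, its p is not given. Grm8 was read by 2 fragments in the A1G tumours, both in replicate 3, and 3 in the Ptch1 tumours, against 156 in cerebellum, so the scaled level was 1.86% of cerebellum in A1G tumours (95% exact interval 0.223% to 6.83%) and 1.47% in Ptch1 tumours (0.299% to 4.36%), intervals that cover counting error only. Grm2 had 0, 0.624 and 3.29 CPM in the A1G tumours, 0.229, 0.112 and 0.766 CPM in the Ptch1 tumours and 3.41, 9.43 and 24.4 CPM in cerebellum. Its log2 differences were -3.29 (SE 1.02, adjusted p = 0.0272) in A1G tumours and -5.32 (SE 1.17, adjusted p = 0.0033) in Ptch1 tumours. The call for Grm2 in A1G tumours was lost without A1G tumour replicate 1 or 2 or cerebellum replicate 2 or 3 (adjusted p = 0.0503 to 0.151) and without the 3 GC-rich libraries (adjusted p = 0.239), and its size rested on few fragments: it was -5.11 without A1G tumour replicate 3 and -2.31 without cerebellum replicate 3, while in Ptch1 tumours it was -4.69 without replicate 2, -6.08 without replicate 3 and -4.31 without cerebellum replicate 3. Grm5 had 24.7, 5.93 and 24.7 CPM in the A1G tumours, 23.8, 7.53 and 8.81 CPM in the Ptch1 tumours and 20.5, 13.7 and 12.6 CPM in cerebellum, with overlap in both comparisons and log2 differences of 0.24 (SE 0.57, adjusted p = 0.783) in A1G tumours and -0.22 (SE 0.57, adjusted p = 0.789) in Ptch1 tumours. Summed over the 6 genes, metabotropic receptors had an FPKM of 19.6 ± 7.41 in A1G tumours, 11.2 ± 7.06 in Ptch1 tumours and 225 ± 59.3 in cerebellum (SD, n = 3 each).

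Of the 8 auxiliary subunit genes of AMPA receptors, 1 was called in each comparison. The transmembrane AMPA receptor regulatory proteins (TARPs) and cornichons bind the channel and govern its trafficking and gating. Cacng7, a TARP gene, was the one called lower: Cacng7 had 15.9, 23.7 and 18.1 CPM in the A1G tumours, 14.4, 14.4 and 14.6 CPM in the Ptch1 tumours and 54.9, 56.9 and 95.8 CPM in cerebellum, with log2 differences of -1.85 (SE 0.32, adjusted p = 0.000963) in A1G tumours and -2.26 (SE 0.32, adjusted p = 0.000184) in Ptch1 tumours. It had the highest FPKM of the 6 TARPs in 7 of 9 libraries, and Cacng2 had it in Ptch1 tumour replicates 1 and 2. Cacng2 had 65.2, 47.4 and 68.7 CPM in the A1G tumours, 64.3, 90.5 and 59.8 CPM in the Ptch1 tumours and 47.3, 103 and 180.1 CPM in cerebellum. Cacng2, which encodes stargazin, the TARP that delivers AMPA receptors to the granule neuron surface, overlapped with cerebellum in both comparisons, with log2 differences of -0.87 (SE 0.41, adjusted p = 0.124) in A1G tumours and -0.62 (SE 0.40, adjusted p = 0.244) in Ptch1 tumours. Cerebellum replicate 1 had the lowest of the cerebellum values, and without it Cacng2 was called lower in both (-1.23, adjusted p = 0.0189 in A1G tumours, and -0.98, adjusted p = 0.0386 in Ptch1 tumours).

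Cnih3, a cornichon gene, ran the other way. Cnih3 had 22.9, 6.24 and 11.9 CPM in the A1G tumours, 11, 8.54 and 9.96 CPM in the Ptch1 tumours and 3.94, 6.08 and 5.39 CPM in cerebellum. All 6 tumour libraries lay above the 3 cerebellum libraries, but the log2 differences of 1.40 (SE 0.51, adjusted p = 0.0502) in A1G tumours and 0.93 (SE 0.50, adjusted p = 0.16) in Ptch1 tumours did not pass. In A1G tumours they passed without A1G tumour replicate 2 (1.76, adjusted p = 0.0124), without the 3 GC-rich libraries (1.80, adjusted p = 0.0295), with DESeq2 (adjusted p = 0.0306) and under 4 other alternatives of scaling, filter or GC offset (adjusted p = 0.0338 to 0.0498). Cacng3, Cacng4, Cacng5, Cacng8 and Cnih2 were not called, with log2 differences between -0.98 for Cacng8 and 0.63 for Cacng4 in A1G tumours and between -0.96 for Cnih2 and 0.67 for Cacng3 in Ptch1 tumours. Summed FPKM of the 8 genes was 99.1 ± 3.9 in A1G tumours, 85.7 ± 11.4 in Ptch1 tumours and 186 ± 67.3 in cerebellum (SD, n = 3 each).

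Dlg1, Dlg2 and Dlg4, which encode scaffolds with a guanylate kinase-like domain that anchor receptors at the postsynaptic density, were called lower in both tumour groups. Dlg3, the member of the family known to be expressed early in development, was not. Dlg2 had 74.5, 151 and 184 CPM in the A1G tumours, 101, 48 and 135 CPM in the Ptch1 tumours and 562, 576 and 594 CPM in cerebellum. The lowest cerebellum library lay above every tumour library, with log2 differences of -2.08 (SE 0.40, adjusted p = 0.00198) in A1G tumours and -2.62 (SE 0.41, adjusted p = 0.00035) in Ptch1 tumours. Dlg4 had 75.2, 185 and 75.3 CPM in the A1G tumours, 84.3, 51 and 98.1 CPM in the Ptch1 tumours and 210.4, 348 and 572 CPM in cerebellum. Dlg4, the best known postsynaptic density scaffold, was lower, with log2 differences of -1.75 (SE 0.45, adjusted p = 0.0102) in A1G tumours and -2.28 (SE 0.46, adjusted p = 0.00182) in Ptch1 tumours, and without cerebellum replicate 3, its highest library, the log2 difference in A1G tumours was -1.29 (adjusted p = 0.0513).

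Dlg1 had 61.9, 85.5 and 97.9 CPM in the A1G tumours, 65.5, 94.8 and 81.6 CPM in the Ptch1 tumours and 289, 269.7 and 231 CPM in cerebellum, with log2 differences of -1.69 (SE 0.27, adjusted p = 0.000529) in A1G tumours and -1.71 (SE 0.27, adjusted p = 0.000342) in Ptch1 tumours. Dlg3 had 83.3, 114 and 130.0 CPM in the A1G tumours, 128, 95.9 and 108 CPM in the Ptch1 tumours and 143, 126 and 153 CPM in cerebellum. Dlg3 overlapped with cerebellum in A1G and in Ptch1 tumours, with log2 differences of -0.37 (SE 0.25, adjusted p = 0.294) in A1G tumours and -0.35 (SE 0.25, adjusted p = 0.297) in Ptch1 tumours. As a share of the summed FPKM of the 4 genes, Dlg3 had 30.4, 22.4 and 28.6% in A1G tumours, 37.1, 36.8 and 28.1% in Ptch1 tumours and 13.7, 10.9 and 10.9% in cerebellum, so that all tumour libraries lay above all cerebellum libraries. The rest of the sum is Dlg1, Dlg2 and Dlg4, which were called lower, so this separation is not independent of their calls.

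The Homer genes moved in different directions. Homer proteins link group I metabotropic receptors to intracellular calcium stores and to Shank. Homer2 had 107, 299.7 and 105 CPM in the A1G tumours, 98.9, 101 and 113 CPM in the Ptch1 tumours and 12.9, 32.8 and 44.7 CPM in cerebellum. Every tumour library exceeded every cerebellum library, with log2 differences of 2.497 (SE 0.49, adjusted p = 0.00216) in A1G tumours and 1.79 (SE 0.48, adjusted p = 0.0105) in Ptch1 tumours. A1G tumour replicate 2 was the highest library, and without it the log2 difference in A1G tumours was 1.81 (adjusted p = 0.00522).

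Homer3 had 70.4, 73 and 53.5 CPM in the A1G tumours, 73, 80.0 and 83.1 CPM in the Ptch1 tumours and 489.8, 353 and 451 CPM in cerebellum. Homer3, a Homer gene abundant in Purkinje cells, was lower in every tumour library, with log2 differences of -2.71 (SE 0.26, adjusted p = 1.33e-05) in A1G tumours and -2.45 (SE 0.26, adjusted p = 1.85e-05) in Ptch1 tumours. It had the smallest adjusted p of the 43 genes in both comparisons. Homer1 had 63.4, 82.3 and 96.6 CPM in the A1G tumours, 86.5, 109.5 and 119 CPM in the Ptch1 tumours and 132, 116 and 96.6 CPM in cerebellum. Homer1 was not called, with log2 differences of -0.51 (SE 0.26, adjusted p = 0.159) in A1G tumours and -0.13 (SE 0.26, adjusted p = 0.724) in Ptch1 tumours.

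Per length, Homer3 led in all 3 cerebellum libraries. Of the summed Homer FPKM it took 54.3, 38.7 and 38.3% in A1G tumours, 44.7, 43 and 39% in Ptch1 tumours and 82.1, 79.5 and 84.7% in cerebellum. Homer2 took 17.2, 33 and 15.6% in A1G tumours, 12.6, 11.3 and 11% in Ptch1 tumours and 0.448, 1.54 and 1.75% in cerebellum. As a share of fragments, without division by length, Homer2 took more in every library, with 44.5, 65.9 and 41.1% in A1G tumours, 38.3, 34.8 and 35.9% in Ptch1 tumours and 2.03, 6.54 and 7.56% in cerebellum, and the tumour and cerebellum libraries were apart on this measure too.

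**Figure D4:**
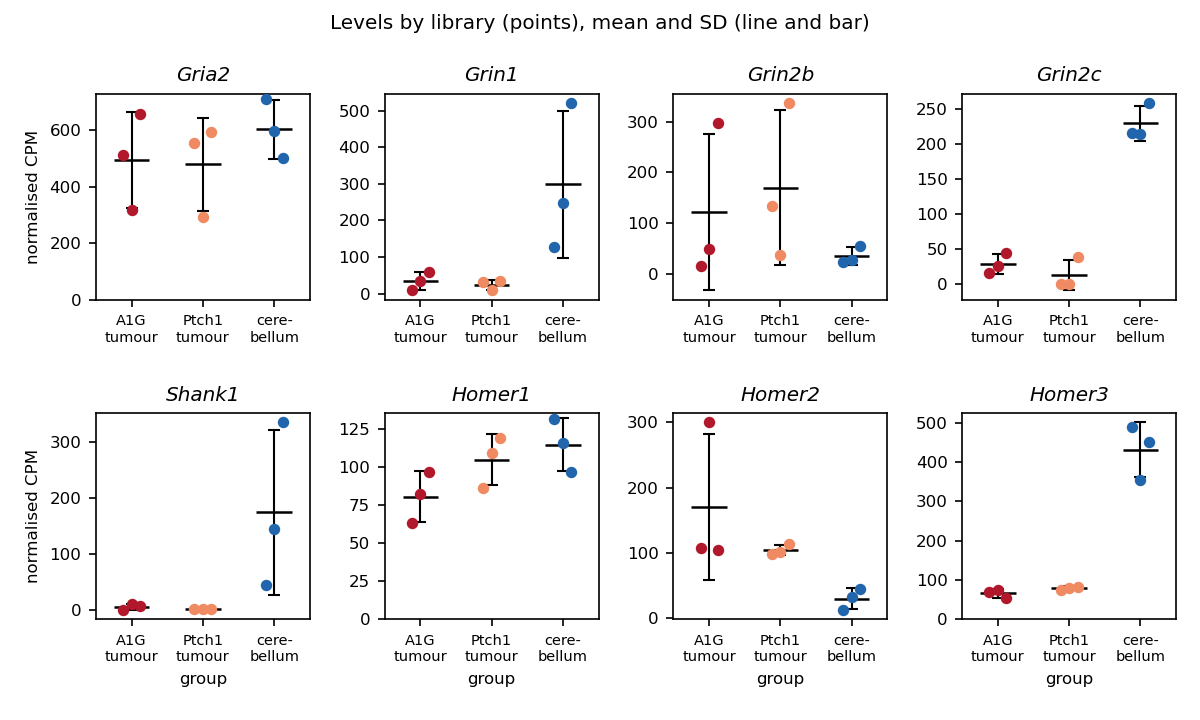
CPM of 8 genes (panels, vertical axis in CPM on a linear scale) in A1G tumours, Ptch1 tumours and cerebellum, with a point for each library, a line for the mean and a bar for the SD. Homer2 is at 98.9 to 299.7 CPM in tumours and 12.9 to 44.7 CPM in cerebellum, and Homer3 at 53.5 to 83.1 CPM in tumours and 353 to 489.8 CPM in cerebellum. For Gria2 and Homer1, some tumour points lie in the cerebellum range and the others below it.

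Because Homer2 and Homer3 differed in opposite directions, their promoters are shown, from 250 bases before to 50 after the start in RefSeq on GRCm38.p6. Capitals mark CAGCTG, an E-box bound by basic helix-loop-helix factors such as ATOH1. Homer2 has 2 listed starts, at chr7:81706876-81707175 and chr7:81692916-81693215, both on the minus strand, and Homer3 has 1 at chr8:70282749-70283048 on the plus strand.
Homer2, upstream start: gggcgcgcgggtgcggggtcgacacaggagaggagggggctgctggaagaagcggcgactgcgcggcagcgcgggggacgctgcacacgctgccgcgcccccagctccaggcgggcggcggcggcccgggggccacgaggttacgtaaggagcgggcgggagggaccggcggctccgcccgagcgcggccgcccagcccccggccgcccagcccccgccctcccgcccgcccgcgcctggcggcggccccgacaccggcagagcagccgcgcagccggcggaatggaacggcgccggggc
Homer2, downstream start: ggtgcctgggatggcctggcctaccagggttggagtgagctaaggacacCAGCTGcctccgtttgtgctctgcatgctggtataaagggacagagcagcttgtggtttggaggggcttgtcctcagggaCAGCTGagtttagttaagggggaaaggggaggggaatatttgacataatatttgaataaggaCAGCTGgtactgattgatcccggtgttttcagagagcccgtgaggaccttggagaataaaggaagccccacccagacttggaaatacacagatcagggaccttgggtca
Homer3: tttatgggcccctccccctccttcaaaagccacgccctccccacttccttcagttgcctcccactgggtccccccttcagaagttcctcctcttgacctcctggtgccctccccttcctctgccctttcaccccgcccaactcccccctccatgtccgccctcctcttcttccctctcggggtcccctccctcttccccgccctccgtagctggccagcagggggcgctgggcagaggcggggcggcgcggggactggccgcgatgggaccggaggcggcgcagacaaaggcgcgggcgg

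The downstream Homer2 window held CAGCTG at 201, 121 and 59 bases before the start, and the upstream window and that of Homer3 held none. CAGCTG reads the same on both strands. It was present in 9 of the 48 promoter windows found for 32 of the 46 genes, and in 16.3% of 32851 windows of the same length in the table. Windows with 3 or more matches numbered 68, which is 0.207%. The GLI site GACCACCCA, searched on both strands, was in none of the 48 windows and in 0.253% of all. Besides Homer2, CAGCTG lay in windows of Dlg1, Dlg2 and Dlgap1, genes called lower in both tumour groups. It also lay in windows of Cacng2, Cacng3, Cacng8, Dlg3 and Homer1, genes called in neither. Of the Homer1 starts, the window at chr13:93307784-93308083 held 1 CAGCTG, 233 bases before the start. These motifs were chosen after the values were seen, a match is a description of letters, and the tables count fragments per gene, so which Homer2 start was used was not measured.

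The Shank genes, whose products join the Homer and SAPAP layers of the postsynaptic density, were called lower in both tumour groups. Shank1 had 0.737, 10.9 and 7.4 CPM in the A1G tumours, 2.98, 2.7 and 1.53 CPM in the Ptch1 tumours and 45.2, 145 and 334 CPM in cerebellum. The lowest cerebellum library lay above every tumour library, with log2 differences of -4.76 (SE 0.79, adjusted p = 0.000726) in A1G tumours and -6.11 (SE 0.85, adjusted p = 0.000152) in Ptch1 tumours. Shank1 passed the filter only through cerebellum, so its calls are given as description. The cerebellum libraries differed widely: without cerebellum replicate 3 the log2 differences were -3.85 in A1G tumours and -5.23 in Ptch1 tumours, and without A1G tumour replicate 2 that in A1G tumours was -5.45. Shank3 had 36.1, 109 and 70.7 CPM in the A1G tumours, 27.7, 20.7 and 41.4 CPM in the Ptch1 tumours and 170.4, 292 and 591 CPM in cerebellum. Shank3 was lower, with log2 differences of -2.28 (SE 0.50, adjusted p = 0.00397) in A1G tumours and -3.57 (SE 0.52, adjusted p = 0.000226) in Ptch1 tumours, or -1.66 in A1G tumours and -2.96 in Ptch1 tumours without cerebellum replicate 3.

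Shank2 had 31.7, 84.5 and 21.4 CPM in the A1G tumours, 36.4, 13.9 and 85.4 CPM in the Ptch1 tumours and 123, 145 and 232 CPM in cerebellum, and no tumour library reached the cerebellum range. Its log2 differences were -1.86 (SE 0.61, adjusted p = 0.0355) in A1G tumours and -1.90 (SE 0.61, adjusted p = 0.0264) in Ptch1 tumours. These calls were less firm. In A1G tumours the adjusted p was 0.111 without A1G tumour replicate 1, 0.116 without A1G tumour replicate 3, 0.0670 without cerebellum replicate 2 and 0.119 without cerebellum replicate 3, and without A1G tumour replicate 2 the log2 difference was -2.65. In Ptch1 tumours the adjusted p was 0.0898 without replicate 1, 0.0717 without replicate 2 and 0.0937 without cerebellum replicate 3, and without replicate 3 the log2 difference was -2.74. With limma on log2(FPKM + 0.1) the adjusted p in A1G tumours was 0.0538. In every group the GC-rich library was the highest of the 3 for Shank2.

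Among the SAPAP genes, which tie the guanylate kinase-like scaffolds to Shank, Dlgap1 was called lower in both tumour groups and Dlgap3 in neither. Dlgap1 had 57.1, 138 and 113 CPM in the A1G tumours, 46.5, 67.4 and 101 CPM in the Ptch1 tumours and 341, 425 and 501 CPM in cerebellum, with log2 differences of -2.04 (SE 0.37, adjusted p = 0.00143) in A1G tumours and -2.57 (SE 0.38, adjusted p = 0.000243) in Ptch1 tumours. Dlgap3 had 192, 111 and 209 CPM in the A1G tumours, 162, 139 and 309.6 CPM in the Ptch1 tumours and 82.2, 93.3 and 141 CPM in cerebellum. The tumour means were higher, but the ranges overlapped and the log2 differences of 0.69 (SE 0.37, adjusted p = 0.173) in A1G tumours and 0.94 (SE 0.37, adjusted p = 0.0573) in Ptch1 tumours did not pass. In Ptch1 tumours the call was made without Ptch1 tumour replicate 2 (adjusted p = 0.0377), without cerebellum replicate 3 (adjusted p = 0.0356) and without A1G tumour replicate 2 (adjusted p = 0.0376), and without the 3 GC-rich libraries it was made in both tumour groups (adjusted p = 0.00454 in A1G tumours and 0.0269 in Ptch1 tumours), as it was with a GC offset per library (adjusted p = 0.0197 in A1G tumours and 0.00572 in Ptch1 tumours). With no filter on low values or a GC offset within groups it was made in Ptch1 tumours (adjusted p = 0.0267 and 0.0477). Of the summed FPKM of Dlgap1, Dlgap2 and Dlgap3, Dlgap3 took 80.4, 51.6 and 69.9% in A1G tumours, 81.8, 73.1 and 77.4% in Ptch1 tumours and 23.4, 22.8 and 28.6% in cerebellum, with no overlap between tumours and cerebellum. As Dlgap1 in that sum was called lower, this separation is not independent of its calls.

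Camk2a and Camk2b, which encode the α and β subunits of calcium/calmodulin-dependent protein kinase II, the kinase that calcium entry through NMDA receptors activates, were called lower in both tumour groups. Camk2b had 92.2, 129 and 100.3 CPM in the A1G tumours, 41.4, 62.6 and 79.7 CPM in the Ptch1 tumours and 320.1, 438 and 443 CPM in cerebellum. It was lower in every tumour library, with log2 differences of -1.90 (SE 0.30, adjusted p = 0.000487) in A1G tumours and -2.71 (SE 0.31, adjusted p = 3.32e-05) in Ptch1 tumours. Camk2a had 3.69, 5.61 and 2.47 CPM in the A1G tumours, 1.83, 2.81 and 2.3 CPM in the Ptch1 tumours and 26.5, 56.6 and 108 CPM in cerebellum. Camk2a was lower, with log2 differences of -4.00 (SE 0.54, adjusted p = 0.000182) in A1G tumours and -4.74 (SE 0.56, adjusted p = 4.51e-05) in Ptch1 tumours, or -3.35 in A1G tumours and -4.12 in Ptch1 tumours without cerebellum replicate 3. The filter passed Camk2a only through cerebellum, so its calls are given as description. In FPKM, the sum of both subunits was 29.5 ± 5.94 in A1G tumours, 16.7 ± 5.21 in Ptch1 tumours and 115 ± 24.9 in cerebellum (SD, n = 3 each), and Camk2b made up most of it in every library.

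Between A1G and Ptch1 tumours the comparison asks whether the added A1G and Math1-cre alleles went with a different level of these genes. None of the 43 genes passed with edgeR, beside 0.0139% of all genes tested, and 0.341 was the smallest adjusted p. An unadjusted p under 0.05 was reached by 5 of the 43 and by 1525 of the 14337 genes. DESeq2 and limma on log2(FPKM + 1) likewise called 0 of the 43. The median log2 difference was 0.45, with 33 positive and 10 negative, and that of all genes tested was 0.02. Over the same libraries the mature granule neuron markers had a median log2 difference of 1.24 and the Purkinje cell markers one of 1.85, with 11 and 10 of 12 positive, and their part in the differences of the 43 genes was not tested.

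The 5 genes with an unadjusted p under 0.05 were Gria1, Shank3, Camk2b, Grm3 and Cnih2, all with higher means in A1G tumours. Their levels in each library are given above except for Cnih2, which had 5.16, 15 and 15.2 CPM in the A1G tumours and 5.27, 4.16 and 6.9 CPM in the Ptch1 tumours. The log2 differences were 1.62 (SE 0.54, adjusted p = 0.341) for Gria1, 1.28 (SE 0.49, adjusted p = 0.389) for Shank3, 0.81 (SE 0.29, adjusted p = 0.373) for Camk2b, 1.15 (SE 0.45, adjusted p = 0.402) for Grm3 and 1.14 (SE 0.49, adjusted p = 0.446) for Cnih2. The groups did not overlap for Camk2b and Cacng7, which were higher in A1G tumours, and for Homer3, which was lower. That is 3 of 43 genes, beside 15.5% of all genes tested (6.69% higher and 8.84% lower).

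Grin2c was the gene whose comparison between genotypes turned on 1 library. Its log2 difference of 1.26 (SE 1.07, adjusted p = 0.704) became 5.55 (SE 0.61, adjusted p = 0.0240) without Ptch1 tumour replicate 3, where Grin2c was at 38.3 CPM against 0.229 and 0.786 CPM in the other two. Without the 3 GC-rich libraries it was 5.60 (SE 0.63, adjusted p = 0.00714). In both fits the Ptch1 tumours were replicates 1 and 2, with 1 and 7 Grin2c fragments. The size of these 2 differences therefore rests on few fragments. In Ptch1 tumour replicate 3 the mature granule neuron markers summed to 1489 CPM, against 590.3 and 268 CPM in the other Ptch1 tumour libraries. The part of these cells in the level of Grin2c was not tested. No other of the 43 genes was called between genotypes under any alternative run.

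Of 56 further genes of postsynaptic and glutamate receptor complexes, 52 were tested. In A1G tumours 4 were called higher and 28 lower than in cerebellum, and in Ptch1 tumours 4 higher and 31 lower. These are 61.5% and 67.3% of those tested, beside 32.4% and 40.0% of all genes tested. Their median log2 difference was -1.17 in A1G tumours and -1.60 in Ptch1 tumours, beside 0.03 and 0.00 over all genes tested. Shisa6 and Lrrtm4 passed the filter only through cerebellum, and without them the counts were 4 higher and 27 lower in A1G tumours and 4 higher and 30 lower in Ptch1 tumours, of 50. Ranked by the mean of both log2 differences, the genes with the 3 largest rises called in both comparisons were Gsg1l, Grip1 and Sipa1l2. Gsg1l had 258, 314 and 244 CPM in the A1G tumours, 329, 350.1 and 433 CPM in the Ptch1 tumours and 18.4, 14.6 and 23.8 CPM in cerebellum. Gsg1l, an auxiliary subunit gene of AMPA receptors, was higher, with log2 differences of 3.84 (SE 0.29, adjusted p = 2.73e-06) in A1G tumours and 4.28 (SE 0.30, adjusted p = 9.55e-07) in Ptch1 tumours.

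Grip1 had 41.7, 45.2 and 28.8 CPM in the A1G tumours, 27.5, 37.1 and 20.7 CPM in the Ptch1 tumours and 11.8, 4.87 and 7.39 CPM in cerebellum. Grip1, a scaffold that binds the tail of the Gria2 product, was higher, with log2 differences of 2.26 (SE 0.40, adjusted p = 0.00113) in A1G tumours and 1.83 (SE 0.39, adjusted p = 0.00299) in Ptch1 tumours. Sipa1l2 had 215, 321 and 284 CPM in the A1G tumours, 271, 195 and 284 CPM in the Ptch1 tumours and 86.1, 81.8 and 128 CPM in cerebellum. Sipa1l2, a relative of the spine-associated Rap GTPase activator, was higher, with log2 differences of 1.47 (SE 0.28, adjusted p = 0.002) in A1G tumours and 1.34 (SE 0.28, adjusted p = 0.00255) in Ptch1 tumours. For these 3 genes no tumour library overlapped with cerebellum.

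By the same mean, the 3 largest falls called in both were those of Rasgrf1, Shisa6 and Olfm3. Rasgrf1 had 13.6, 6.24 and 14 CPM in the A1G tumours, 1.6, 1.35 and 0.383 CPM in the Ptch1 tumours and 211, 248 and 293 CPM in cerebellum. Rasgrf1, a Ras exchange factor that binds NMDA receptors, was lower, with log2 differences of -4.48 (SE 0.39, adjusted p = 6.81e-06) in A1G tumours and -7.65 (SE 0.47, adjusted p = 4.48e-07) in Ptch1 tumours. Between A1G and Ptch1 tumours the log2 difference of Rasgrf1 was 3.17 (adjusted p = 0.0501). It passed with DESeq2 (adjusted p = 7.6e-07), without A1G tumour replicate 2 (adjusted p = 0.00902), without the 3 GC-rich libraries (adjusted p = 0.00604) and under 5 other alternatives of scaling, filter or GC offset (adjusted p = 0.000413 to 0.0478). Shisa6 had 5.16, 4.99 and 34.5 CPM in the A1G tumours, 2.06, 0.786 and 0.383 CPM in the Ptch1 tumours and 36.2, 94 and 168 CPM in cerebellum. Shisa6, another AMPA receptor auxiliary subunit gene, passed the filter only through cerebellum, so its calls against cerebellum are given as description. It was lower, with log2 differences of -2.76 (SE 0.75, adjusted p = 0.0138) in A1G tumours and -6.46 (SE 0.94, adjusted p = 0.000213) in Ptch1 tumours. Without cerebellum replicate 3 the first was -2.14 (adjusted p = 0.0627, and 0.103 without the 3 GC-rich libraries) and the second -5.84, without A1G tumour replicate 3 the first was -4.29, and without Ptch1 tumour replicate 1 the second was -7.16. Between A1G and Ptch1 tumours the libraries did not overlap for Shisa6, and the log2 difference of 3.70 (SE 0.91, adjusted p = 0.268) did not pass, but it did with DESeq2 (adjusted p = 0.0024) and with no filter on low values (adjusted p = 0.012). Rasgrf1 and Shisa6 both lay at 0.383 CPM in Ptch1 tumour replicate 3, where 3 fragments correspond to 1.11 CPM. Few fragments thus limit the size of their differences that involve Ptch1 tumours. Olfm3 had 14.7, 4.68 and 26.7 CPM in the A1G tumours, 4.58, 0.899 and 16.9 CPM in the Ptch1 tumours and 264, 275 and 168 CPM in cerebellum. Olfm3, an olfactomedin found in AMPA receptor complexes, was lower, with log2 differences of -3.95 (SE 0.80, adjusted p = 0.00255) in A1G tumours and -5.14 (SE 0.85, adjusted p = 0.000516) in Ptch1 tumours. The first was -4.61 without A1G tumour replicate 3, and the second was -4.502 without Ptch1 tumour replicate 2 and -6.55 without Ptch1 tumour replicate 3.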

How the data were processed

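RNA of 3 A1G tumour, 3 Ptch1 tumour and 3 cerebellum libraries was depleted of ribosomal RNA and sequenced on the Ion Proton, 3 libraries per chip, per the labels' protocols, which do not say which libraries shared a chip. Bowtie 0.12.2 and the mouse build mm10 are named per the submitters' processing notes, and the annotation and counting rule are not given in the sources used here. Per the file headers, each deposited table lists, per gene, the authors' expected count of fragments (raw fragments, not always whole), scaled fragments, which are a signal value, and FPKM. The expected counts were rounded to whole numbers and tested with edgeR 4.0.16 in R 4.3.3, with TMM scaling, 1 mean per group over all 9 libraries, and genes that reached an FPKM of 1 in 3 or more libraries. The deposited FPKM served for the filter, for shares within a family and for limma 3.58.1. The scaled signal was not used for tests. DESeq2 1.42.0 was run as an alternative, as were other scalings, filters, a replicate block and leaving out each library, and 3 alternatives on GC content were added after the data were seen. The fitting code was tested on simulated data. Coordinates and GC content came from GENCODE M21 on GRCm38, which is mm10, and promoters from RefSeq.

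The genes, lists, motifs and tests were chosen with earlier results of these data known. Values in every library are given for the AMPA and GluN2 genes, for the largest called changes and the most abundant gene of each role, for genes called in 1 comparison, and for the 5 smallest p between genotypes; other genes given in this way were chosen after their values were seen. Values per gene lie on 2350941 to 9290237 fragments per library, so 3 fragments correspond to 0.323 to 1.28 CPM. Counting intervals and this floor cover counting error only. Replicate numbers were not shown to pair the libraries. Same-numbered libraries of different groups had correlations of their deviations from the group means of -0.06 to 0.20. For libraries with different numbers these were -0.24 to 0.23.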

Additional observations from a re-analysis of the deposited data

How the results depend on the processing

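In the comparisons with cerebellum, 20 to 26 of the genes were called in A1G tumours and 23 to 29 in Ptch1 tumours under the alternatives that tested 43 to 46 genes, and 18 and 19 of 36 under the stricter filter. Leaving out 1 library at a time gave 20 to 24 in A1G tumours, 23 to 27 in Ptch1 tumours, and 0 to 1 between genotypes, where Grin2c was called without Ptch1 tumour replicate 3. Leaving out the 3 GC-rich libraries also gave 1 between genotypes, and 26 and 25 against cerebellum. With the replicate block the counts were 23, 27 and 0. The block lost the calls of Shank2 in A1G tumours and Neto2 in Ptch1 tumours and made those of Grin2b and Dlgap3 in Ptch1 tumours. The replicate numbers were not shown to pair the libraries, so a call lost there need not mean a weaker effect. The mean GluN2 share of Grin2b in cerebellum was 9.52% by fragments in place of 6.204% by FPKM. In A1G tumours it was 64.2% in place of 54.5%, and in Ptch1 tumours 93.7% in place of 90.4%. Leaving out 1 library gave shares by FPKM of 42.3% to 63.7% in A1G tumours, 86.6% to 94.7% in Ptch1 tumours and 5.10% to 6.92% in cerebellum. No scaling moved the median log2 difference of all genes by 0.1.

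Log2 differences that turned sign belonged to genes called in no comparison concerned. Without the 3 GC-rich libraries Cacng2 was 0.0513 in Ptch1 tumours, Cacng3 0.86, Cnih2 -0.11 and Grik3 0.39 in A1G tumours, and Grin3a 0.0246 in Ptch1 tumours. With a GC offset per library Cacng8 was 0.0476 and Grik5 0.11 in Ptch1 tumours, and with limma Homer1 was 0.0267 there with a pseudocount of 1 and 0.0273 with 0.1. Leaving out 1 library gave ranges across 0 for Cacng3 (-1.51 to 0.36), Cacng5 (-0.61 to 0.0423), Cnih2 (-0.0422 to 0.53), Grik5 (-0.22 to 0.31), Grin2b (-0.0914 to 2.31) and Grm5 (-0.0415 to 0.66) in A1G tumours. In Ptch1 tumours it did so for Cacng4 (-0.16 to 0.84), Cacng8 (-0.83 to 0.0311), Grik2 (-0.64 to 0.0364) and Grm5 (-0.94 to 0.0851), and between genotypes for Sipa1l2 (-0.0222 to 0.28). The causes were not tested. Grm2, Grm7, Grm8, Grin2a, Grik4, Shank1 and Camk2a rest on few fragments in tumours, as does Grin2c in Ptch1 tumour replicates 1 and 2. This limits the size of their differences. All of these genes but Grin2c passed the filter only through cerebellum. The filter thus favoured a lower level in tumours, and a direction that held in the alternatives is no support for it.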
